A study of Homo sapiens with 9 samples.

Results

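The human mitochondrial ribosomal protein genes were taken as the protein-coding genes of GENCODE on GRCh37 whose symbol begins with MRPL or MRPS followed by a digit. This rule uses names alone and gave 78 genes of 20163 protein-coding genes. Within 1 kb of their transcription start sites (TSSs) lay 76 of the 40703 open regions that the peak lists form together on the autosomes, X and Y. Formaldehyde-assisted isolation of regulatory elements followed by sequencing (FAIRE-seq) recovers DNA that is not held by nucleosomes, and was used to map chromatin accessibility in a model of transcriptional memory in the Jurkat T cell leukaemia line, which is human. The model has non-stimulated cells (NS), cells stimulated with phorbol 12-myristate 13-acetate (PMA) and ionomycin, cells after stimulus withdrawal (SW) and re-stimulated cells. Of 9 samples, 4 had a peak list and the other 5 were not analysed here. Per the labels, the NS DMSO list comes from unstimulated cells given the vehicle DMSO, and the NS rottlerin list from unstimulated cells given 15 μM rottlerin, a protein kinase C inhibitor, for 1 h. The SW DMSO and SW rottlerin lists come from cells with the same pre-treatments that were stimulated for 4 h, washed and kept in culture for 1 day, although the study's methods state a shorter stimulation. Each list is 1 library of 1 cell line, so no spread between replicates and no p-value can be given.

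The cells behind each list are given in one way by the labels and in another by the study's methods. The methods call peaks on cells pre-treated with DMSO in all 4 states, with no list for rottlerin. Merged, the lists gave 40731 regions, 28 of them outside the autosomes, X and Y. The methods give the same numbers of merged and removed regions for those states. This match points to lists of the DMSO states, with none from cells given rottlerin. Which list other than NS DMSO holds stimulated, SW or re-stimulated cells cannot be told from the match. Each list carries its label below as a name, and a difference between lists is not a difference assigned to rottlerin or to stimulus withdrawal. The lists held 18977, 20132, 23835 and 30409 peaks in the order NS DMSO, SW DMSO, NS rottlerin and SW rottlerin, with median fold enrichments over total input between 4.03 and 4.08. Read depth per library is unknown from the lists. Of 10 T cell marker genes, 4 had an open region at a TSS in all lists, namely CD3D, CD3E, CD28 and LCK, where 35.5% of all coding genes did. ZAP70 was in 3 lists, LAT in 2, and CD3G and CD5 in 1 each, and CD2 and CD7 had none in any list. No B cell marker of 6 and no myeloid marker of 6 was present in all 4 lists. Of these, PAX5 was in 3 lists, CD22 in 2 and CD68 in 1.

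Mitochondrial ribosomes translate the few messages of mitochondrial DNA, all of which encode subunits of the respiratory chain complexes or of ATP synthase. Their ribosomal RNA is made inside the organelle, whereas every ribosomal protein is encoded in the nucleus, made in the cytosol and imported. Some of these proteins have counterparts in bacteria and others were acquired by the mitochondrial ribosome. Promoters of nuclear genes for mitochondrial proteins are known for sites of NRF1, of ETS factors such as GABPA, and of YY1.

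Most mitochondrial ribosomal protein genes had an open region at a TSS. A gene was counted as present in a list when a merged region holding a peak of that list lay within 1 kb of any of its annotated TSSs. In the NS DMSO list 57 of the 78 genes were present (73.1%, 95% Wilson interval 62.3 to 81.7), against 40.5% of all protein-coding genes. In the SW DMSO list 59 were present (75.6%, 65.1 to 83.8), against 41.7%. In the NS rottlerin list 66 were present (84.6%, 75.01 to 90.97), against 45.1%. In the SW rottlerin list 67 were present (85.9%, 76.5 to 91.9), against 49.8%. In each list the share was above that of all coding genes by more than the interval, which covers counting over genes and not replicate error. All coding genes differ from the set in base composition. A window like a CpG island, as defined below, was at the TSS of 94.9% of the set and 65.6% of coding genes.

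The 83 cytosolic ribosomal protein genes, which encode the ribosomes outside the organelle, had higher shares. They reached 94.0% in the NS DMSO list, 91.6% in each of the SW DMSO and NS rottlerin lists and 96.4% in the SW rottlerin list. All 4 lists held 52 mitochondrial ribosomal protein genes (66.7%, 55.6 to 76.1), against 35.5% of all coding genes and 88.0% of the cytosolic set. No list held 9 of them (11.5%, 6.19 to 20.5), against 46.9% of all coding genes. The remaining 17 (21.8%) were in 1 to 3 lists, where all coding genes had 17.5%. Over genes with a region in any list the order was reversed, with 17 of 69 in the set and 3532 of 10697 coding genes. Of coding genes with an island-like window, 61.4% were in all 4 lists at 50 to 60% GC, which lies within the interval of the set. The share was 55.6% at 60 to 70% GC and 35.7% above 70%.

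**Figure D1:**
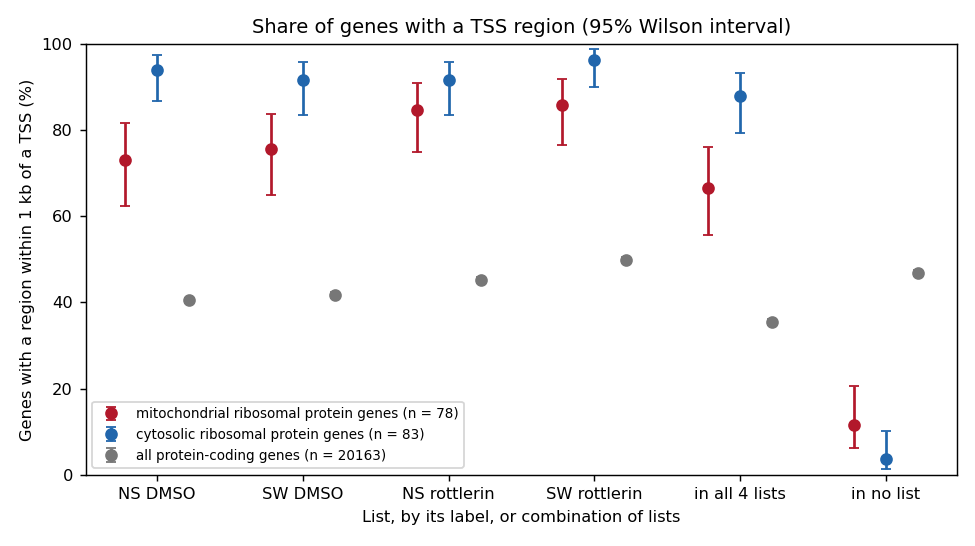
Share of genes (%, y axis) with an open region within 1 kb of a TSS in each list, in all 4 lists and in no list (x axis), for 78 mitochondrial ribosomal protein genes, 83 cytosolic ribosomal protein genes and 20163 protein-coding genes. Points are shares and bars 95% Wilson intervals. The mitochondrial set lies between 73.1% and 85.9% in single lists, below the cytosolic set and above all coding genes.

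The promoters below are shown because they stand for the range of results. MRPS30 had the highest enrichment, MRPL52 was open in all lists and held matches of the ETS, NRF1 and YY1 motifs together, and MRPS17 had the largest difference between the DMSO lists. MRPS22 and MRPL16 had a TSS region in both rottlerin lists and in neither DMSO list, and MRPS34 had none in any list. Each sequence runs 5′ to 3′ along the gene from 250 bases before to 50 bases from the canonical TSS on, in GRCh37. Capitals mark matches on either strand to the ETS motif CCGGAAG, the NRF1 motif GCGCANGC, the YY1 motif AAGATGGC and the NFY motif CCAAT.
MRPS30 (chr5:44808799-44809098, plus strand): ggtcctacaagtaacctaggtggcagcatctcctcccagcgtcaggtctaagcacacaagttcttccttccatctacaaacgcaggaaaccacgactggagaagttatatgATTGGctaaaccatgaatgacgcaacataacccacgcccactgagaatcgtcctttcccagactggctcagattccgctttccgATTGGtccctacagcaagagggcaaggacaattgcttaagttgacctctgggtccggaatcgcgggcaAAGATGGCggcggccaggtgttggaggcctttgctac
MRPL52 (chr14:23298846-23299145, plus strand): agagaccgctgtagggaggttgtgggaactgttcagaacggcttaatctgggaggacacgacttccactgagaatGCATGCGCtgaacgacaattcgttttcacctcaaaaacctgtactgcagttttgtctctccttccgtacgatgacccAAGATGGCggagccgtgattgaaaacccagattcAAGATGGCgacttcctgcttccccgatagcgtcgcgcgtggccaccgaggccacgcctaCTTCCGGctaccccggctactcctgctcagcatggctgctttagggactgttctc
MRPS17 (chr7:56019320-56019619, plus strand): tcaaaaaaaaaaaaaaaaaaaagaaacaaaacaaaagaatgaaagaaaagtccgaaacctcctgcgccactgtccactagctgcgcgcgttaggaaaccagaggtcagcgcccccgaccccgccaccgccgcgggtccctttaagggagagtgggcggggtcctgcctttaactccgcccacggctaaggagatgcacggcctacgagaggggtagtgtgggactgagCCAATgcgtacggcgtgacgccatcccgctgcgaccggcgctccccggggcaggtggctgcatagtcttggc
MRPS22 (chr3:139062612-139062911, plus strand): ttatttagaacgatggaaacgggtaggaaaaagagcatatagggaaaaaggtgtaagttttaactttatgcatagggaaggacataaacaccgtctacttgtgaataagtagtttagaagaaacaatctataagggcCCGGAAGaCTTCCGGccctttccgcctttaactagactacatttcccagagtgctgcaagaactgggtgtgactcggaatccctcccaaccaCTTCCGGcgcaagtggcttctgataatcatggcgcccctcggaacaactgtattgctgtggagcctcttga
MRPL16 (chr11:59578202-59578501, minus strand): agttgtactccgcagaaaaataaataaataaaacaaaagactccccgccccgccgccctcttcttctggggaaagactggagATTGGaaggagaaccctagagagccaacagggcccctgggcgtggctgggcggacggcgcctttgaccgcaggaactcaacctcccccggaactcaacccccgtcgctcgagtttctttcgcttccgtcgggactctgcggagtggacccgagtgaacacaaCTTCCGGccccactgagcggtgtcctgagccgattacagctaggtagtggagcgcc
MRPS34 (chr16:1823086-1823385, minus strand): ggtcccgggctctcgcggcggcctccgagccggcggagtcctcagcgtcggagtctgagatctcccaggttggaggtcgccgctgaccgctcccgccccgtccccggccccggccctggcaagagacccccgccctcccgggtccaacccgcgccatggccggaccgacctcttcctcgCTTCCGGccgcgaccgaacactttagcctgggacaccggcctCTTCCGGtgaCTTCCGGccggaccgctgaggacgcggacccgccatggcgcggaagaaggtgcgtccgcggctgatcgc

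The MRPS30 promoter held 2 NFY matches and a YY1 match 13 bases after the TSS, counting the TSS as base 0. MRPS34, absent from every list, held 3 ETS matches, as many as MRPS22. Its window had a GC content of 73.7%, where that of MRPS22 had 45.7%.

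The height of the regions was as follows. For each gene the merged TSS region with the highest fold enrichment in any list was taken as its leading region, and its fold enrichment in a list is that of the highest peak there. The median over the genes with a value was 4.66 in the NS DMSO list (n = 57), 4.62 in SW DMSO (n = 59), 4.42 in NS rottlerin (n = 66) and 4.48 in SW rottlerin (n = 67). Over all coding genes the medians were 4.47, 4.41, 4.49 and 4.55. The median of the mitochondrial set thus lay above that of the coding genes in the DMSO lists and below it in the others. Single genes of the set had a quartile range of 3.84 to 5.27 in the NS DMSO list. For the 52 genes with a value in all 4 lists, the medians were 4.73, 4.76, 4.75 and 4.95.

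MRPS30, which despite its symbol encodes a protein of the large subunit, had the highest fold enrichment in every list. Its region (chr5:44808721-44809087) spanned the TSS, and its fold enrichment was 8.69 in NS DMSO, 7.25 in SW DMSO, 8.42 in NS rottlerin and 10.1 in SW rottlerin. MRPS17, of the small subunit, followed in the NS DMSO list at 7.53, with 4.89, 6.33 and 6.22 in SW DMSO, NS rottlerin and SW rottlerin. MRPS16, also of the small subunit and known for mutations in a fatal respiratory chain disorder, had 6.996, 6.51, 5.83 and 5.90 in the same order of lists. MRPS27, a pentatricopeptide repeat protein, had 6.70, 6.78, 6.57 and 7.45, and MRPS14 had 6.48, 5.52, 5.16 and 6.28. These 5 genes were present in every list, and at MRPS27 all 4 values lay within 1 unit of each other.

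The lowest value in the NS DMSO list was 2.97, at MRPL39 and at the region that MRPL46 and MRPS11 share. MRPL57 had 2.99 and MRPS35 had 3.00. A low value did not go with absence from other lists in each case. The region of MRPL46 and MRPS11 stayed at 2.97, 3.06, 3.11 and 2.96 across the lists in the order above, and MRPL57 at 2.99, 3.10, 3.20 and 3.17. MRPL39 was instead missing from both rottlerin lists.

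**Figure D2:**
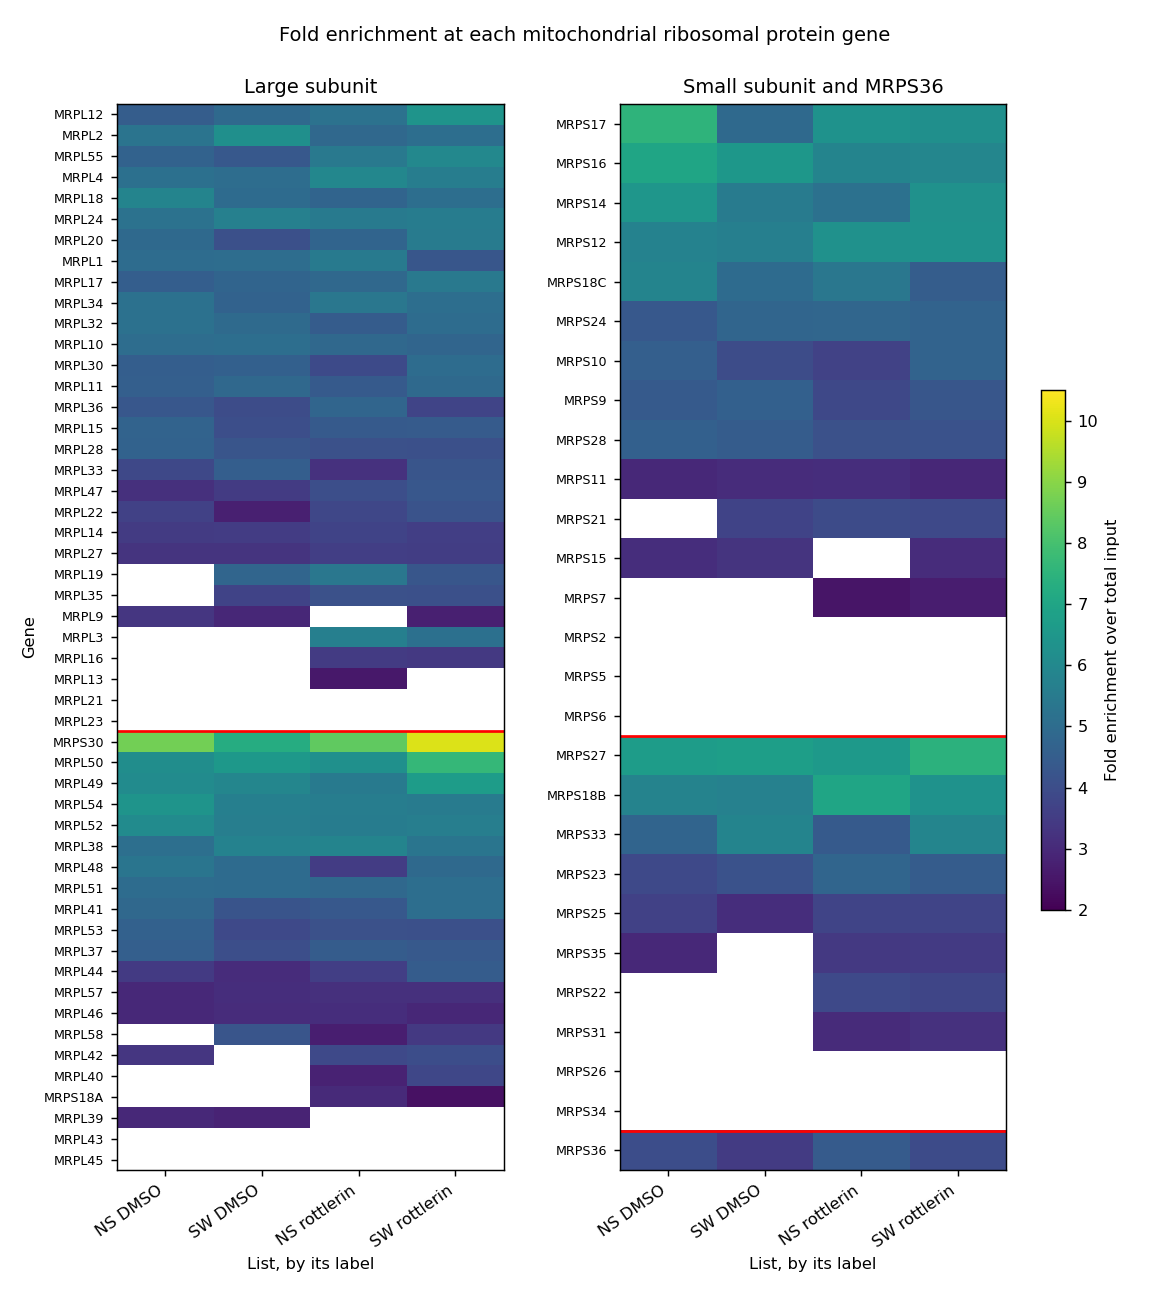
Fold enrichment over total input (colour) of the leading TSS region of each gene (rows) in each list (columns, by label). Left, genes of the large subunit, and right, those of the small subunit with MRPS36 at the bottom. Red lines part the proteins with a bacterial counterpart (above) from those specific to mitochondria (below), and white cells have no peak. MRPS30 is the brightest row, at 7.25 to 10.1, and 9 rows are white throughout.

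By role, the large subunit proteins with a bacterial counterpart had 30 genes, of which 22 were in all lists, 6 in some and 2 in none. Of the 21 specific to the mitochondrial large subunit, 14 were in all, 5 in some and 2 in none. The small subunit had 16 genes with a bacterial counterpart (10 in all, 3 in some, 3 in none) and 10 specific to mitochondria (5, 3 and 2). Each class held genes of every kind, and the medians in the NS DMSO list ran from 4.31 to 4.93. MRPS36 stood in no class, since its product is now known as a subunit of the 2-oxoglutarate dehydrogenase complex, and it was present in all lists at 3.47 to 4.44.

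The genes that were in no list were MRPL21, MRPL23, MRPL43, MRPL45, MRPS2, MRPS5, MRPS6, MRPS26 and MRPS34. For all but MRPS6 and MRPS34 the nearest region of any list lay 16.6 kb or more from a TSS, the farthest being 57.8 kb away at MRPL23. MRPS34 had one at 9.39 kb and MRPS6 at 2.25 kb.

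Presence differed between lists for 17 genes. The most common pattern was presence in both lists labelled rottlerin and neither list labelled DMSO, where the labels serve as names only. It held for 7 genes (8.97%, 4.42 to 17.4), against 3.01% of all coding genes and 0 of 83 cytosolic ribosomal protein genes. Part of this gap lies in the genes in no list, 11.5% of the set and 46.9% of all coding genes. Over genes with a region in any list the counts were 7 of 69 in the set and 607 of 10697 coding genes. The 7 genes were MRPL3, MRPL16, MRPL40, MRPS7, MRPS18A, MRPS22 and MRPS31. The opposite pattern, both DMSO lists and neither rottlerin list, held for MRPL39 alone, where all coding genes had 0.174%. No gene was in both SW lists and neither NS list (all coding genes 1.39%) or in both NS lists and neither SW list (0.327%). With 0 of 78, a share of up to 4.69% is within the Wilson interval in both cases.

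Most of the regions behind this pattern were weak. Their fold enrichment ran from 2.47 to 5.65 in the NS rottlerin list and from 2.38 to 5.15 in the SW rottlerin list, and in each list 6 of the 7 lay below the median of the mitochondrial set. MRPL3, a large subunit protein whose gene is mutated in a mitochondrial cardiomyopathy, was the exception at 5.65 and 5.15. Its region (chr3:131209279-131209672) lay 12.3 kb downstream of the canonical TSS, near an alternative one. At the canonical TSS, MRPL3 had a peak in the SW rottlerin list alone, at 3.14.

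MRPS22, a small subunit protein known from infantile mitochondrial disease, had 3.86 in NS rottlerin and 3.77 in SW rottlerin, in a region across its TSS (chr3:139062721-139063164). MRPL16, the counterpart of a bacterial large subunit protein, had 3.49 and 3.43 (chr11:59578167-59578423). Both were close to equal in the rottlerin lists. MRPL40 had 2.80 and 3.81, in a region it shares with the histone chaperone gene HIRA, and MRPS31 had 3.03 and 3.22. MRPS18A had 3.00 and 2.38, and MRPS7 had 2.47 and 2.66. The peak score (the −log10 q-value multiplied by 10) ran from 15 at MRPL40 to 81 at MRPL3 in the NS rottlerin list, against a median of 120.5 for the genes in all lists.

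The rottlerin lists hold more peaks, so the pattern was also counted with equal numbers of peaks. The part of peak number in the pattern was not tested. With each list reduced to its 18977 highest-scoring peaks, 4 genes had the pattern, against 1.62% of all coding genes, and both rottlerin lists then held 61 of the 78 genes each, where the DMSO lists held 57 each. All coding genes then had 40.5% in NS DMSO, 40.9% in SW DMSO, 41.7% in NS rottlerin and 42.8% in SW rottlerin. Of the 21 genes of the set absent from NS DMSO, 12 (57.1%) were in NS rottlerin, against 12.0% of the 12005 coding genes absent from NS DMSO. In SW DMSO 4 of the 21 (19.0%) were present, against 8.11%. Of those 12005 coding genes, 9466 were in no list at all. Among genes absent from NS DMSO but with a region in another list, 12 of 12 were in NS rottlerin, against 56.7% of 2539 coding genes. For SW rottlerin it was 11 of the 12 (91.7%), near the 85.8% of coding genes. For SW DMSO it was 4 of the 12 (33.3%), below the 38.4% of coding genes. The 12 include the 7 genes of the pattern, so these counts are no separate support for it.

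The other genes with partial presence were each missing from a single list, apart from MRPL13, which was in the NS rottlerin list alone at 2.54. MRPS21, MRPL19, MRPL35 and MRPL58 were missing from NS DMSO. MRPL58 encodes a peptidyl-tRNA hydrolase that became part of the ribosome, and its region was the widest of the set at 1821 bp. MRPL19 had 4.76, 5.36 and 4.26 in SW DMSO, NS rottlerin and SW rottlerin, the second of which reached the upper quartile of the set in that list. MRPS15 and MRPL9 were missing from NS rottlerin, and MRPS35 and MRPL42 from SW DMSO, with values between 2.76 and 4.02 where present. MRPL39 had 2.97 in NS DMSO and 2.84 in SW DMSO, in a region 847 bp from a TSS, and a region across a TSS was in SW DMSO alone at 2.78.

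Where a gene had a value in both lists compared, the fold enrichment was mostly similar. Over the 52 genes with values in all lists, the highest list exceeded the lowest by a median of 1.20-fold, and 49 genes stayed under 1.5-fold. The exceptions were MRPS17 at 1.54-fold and MRPL22 and MRPL48 at 1.51-fold each. The highest value was in the NS DMSO list for 14 genes, SW DMSO for 5, NS rottlerin for 15 and SW rottlerin for 18. The 4 comparisons below share lists with one another.

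For SW DMSO over NS DMSO the median ratio was 0.968 over 55 genes, against 0.978 over cytosolic ribosomal protein genes and 0.990 over all coding genes. No gene was higher by 1.5-fold or more, where 0.655% of coding genes were. MRPS17 alone was lower by that much, at a ratio of 0.649, where 0.543% were. Next lowest were MRPL22 at 0.754 and MRPL20 at 0.833. The highest were MRPS33 at 1.23, MRPL33 at 1.19 and MRPL2 at 1.19.

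For NS rottlerin over NS DMSO the median ratio was 0.981 over 54 genes, where the cytosolic set had 1.03 and all coding genes 1.03. Of the mitochondrial set 26 genes lay above 1 and 28 below, and of all coding genes 59.8% lay above. No gene was higher by 1.5-fold (1.32% of coding genes), and MRPL48 alone was lower (0.404%). MRPL48, specific to the mitochondrial large subunit, had 5.30 in NS DMSO, 4.97 in SW DMSO, 3.50 in NS rottlerin and 4.90 in SW rottlerin, so that a single list stood apart. MRPS14 at 0.797 and MRPS10 at 0.804 were next lowest. MRPL47 at 1.27, MRPS23 at 1.23 and MRPS18B at 1.20 were highest.

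For SW rottlerin over NS rottlerin the median was 1.01 over 65 genes, against 1.05 in the cytosolic set and 1.05 over all coding genes. No gene passed 1.5-fold in either direction, where 0.809% of coding genes were higher and 0.234% lower. MRPL48 at 1.40, MRPL40 at 1.36 and MRPS33 at 1.33 were highest, and MRPL1 at 0.780, MRPL36 at 0.783 and MRPL19 at 0.794 lowest.

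For SW rottlerin over SW DMSO the median was 1.04 over 58 genes, against 1.08 in the cytosolic set and 1.09 over all coding genes. MRPL22, whose bacterial counterpart lines the exit tunnel of the ribosome, was higher by 1.51-fold (1.53% of coding genes were higher), and none was lower (0.113%). Its values were 3.66 in NS DMSO, 2.76 in SW DMSO, 3.82 in NS rottlerin and 4.18 in SW rottlerin, the SW DMSO value being the lowest of the mitochondrial set in that list. With each ratio divided by the median over all coding genes, no gene was higher by 1.5-fold. MRPL44 at 1.46 and MRPS30 at 1.39 followed. MRPL58 at 0.803, MRPL2 at 0.811 and MRPL1 at 0.845 were lowest. In each comparison the median of the mitochondrial set was below that of all coding genes and the counts past 1.5-fold were 0 or 1.

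**Figure D3:**
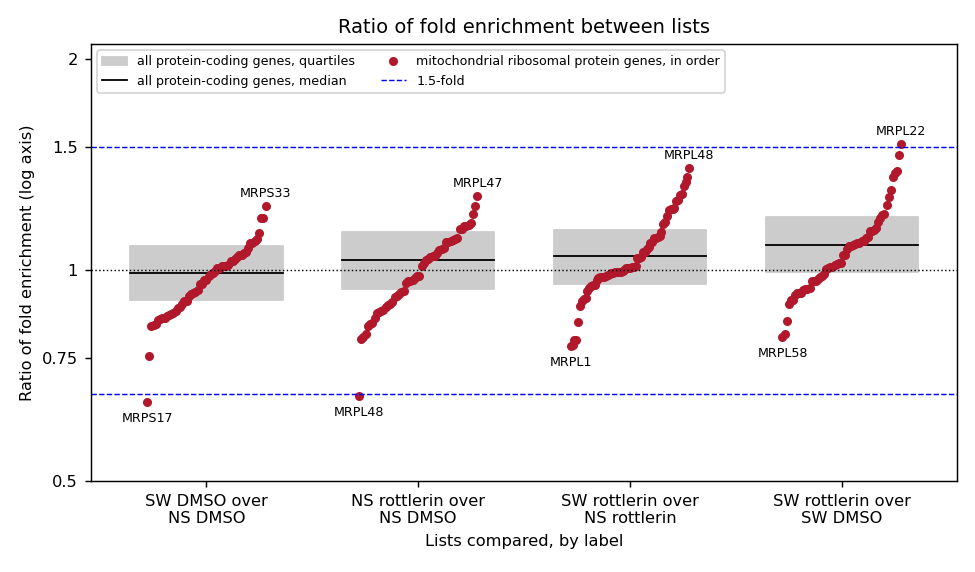
Ratio of fold enrichment between lists (y axis, log scale) for 4 comparisons named by label (x axis). Red points are mitochondrial ribosomal protein genes in order of their ratio, with the lowest and highest named. The grey band and black line are the quartiles and median of all protein-coding genes, and dashed lines mark 1.5-fold. The points lie mostly inside or near the grey band, and MRPS17, MRPL48 and MRPL22 pass a dashed line.

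The regions sat at the TSS and were narrow. Of 69 genes with a region, the leading region covered an annotated TSS in 66, and its mid-point lay within 200 bp of the canonical TSS in 51. It was upstream of that TSS more often than downstream, with 13 mid-points downstream and a median of −67.5 bp. The median width was 327 bp, from 167 to 1821 bp. Coding genes in general had regions of this kind. In the NS DMSO list, 7318 of the 8158 coding genes present kept a region when it had to overlap a TSS, and 56 of 57 in the set did. The median peak width in that list was 303 bp over all coding genes and 276 bp in the set. A second TSS region was found at 8 genes. MRPL11 had its leading region (chr11:66234109-66234390) 27.9 kb upstream of the canonical TSS, at the promoter of PELI3 where an annotated transcript of MRPL11 begins, and a weaker region near the canonical TSS in 3 lists at 2.94 to 3.61.

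Many of the genes shared their open region with a neighbour. Of the 69 genes, 30 (43.5%, 32.4 to 55.2) had a TSS region that also lay within 1 kb of a TSS of another coding gene, against 31.4% of coding genes with a region. A coding gene pointing away from it with its canonical TSS within 1 kb was present at 26 of the 78 genes (33.3%, 23.9 to 44.4). This compares with 9.31% of all coding genes and 16.9% of the cytosolic set. For such pairs a peak cannot be assigned to either gene.

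MRPL46 and MRPS11, of the large and small subunits, formed the pair in which both genes belong to the set, in the region chr15:89010576-89010946. Of the other pairs, some are named here for the known role of the partner, a choice made after the pairs were seen. Several partners act in the same organelle. MRPL36 lay opposite NDUFS6 and MRPL47 opposite NDUFB5, which encode subunits of respiratory complex I. MRPS12 lay opposite SARS2, the mitochondrial seryl-tRNA synthetase, and MRPS27 opposite PTCD2, a mitochondrial pentatricopeptide repeat protein. Others serve protein synthesis and turnover elsewhere, with MRPL49 opposite FAU, which encodes a cytosolic ribosomal protein, MRPL18 opposite TCP1, a chaperonin subunit, and MRPL32 opposite PSMA2, a proteasome subunit. MRPS17 shared its region with NIPSNAP2, which runs in the same direction. The partners were not tested for a shared function.

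The TSS windows of the set were rich in CpG. In the 300 bases around the canonical TSS, 74 of 78 genes (94.9%) met the criteria used here for a CpG island, a GC content over 50% and an observed to expected CpG ratio over 0.6, against 65.6% of coding genes, 84.2% of coding genes with a TSS region and 86.7% of the cytosolic set. The median GC content was 59.7%, where all coding genes had 63.7%, those with a TSS region 65.7% and the cytosolic set 59.3%. Genes absent from every list had the highest median GC content, at 75.7% (range 63.7 to 82.0), against 58.8% for those in all 4 lists and 57.0% for those in 1 to 3.

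Of the 67 genes with a window of 70% GC or less, 65 had a region in some list. Of the 11 above 70%, 4 had one, namely MRPL14, MRPL38, MRPL40 and MRPL41. MRPS6, with the highest GC content of 82.0%, MRPL23 with 81.3%, MRPS2, MRPS26, MRPS5, MRPS34 and MRPL21 had none. Among all coding genes with an island-like window, 76.7% of those with 50 to 60% GC had a region and 60.8% of those above 70%. Over all coding genes, with or without an island-like window, the share was lowest in GC-poor windows, at 22.9% up to 50% GC, 51.8% from 50 to 60%, 64.8% from 60 to 70% and 60.1% above 70%. The 3 cytosolic ribosomal protein genes above 70% GC all had a region. With 11 genes of the set and 3 cytosolic genes above 70% GC, the counts are too few to tell the set apart from either group. The part of GC content in the calls was not tested.

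**Figure D4:**
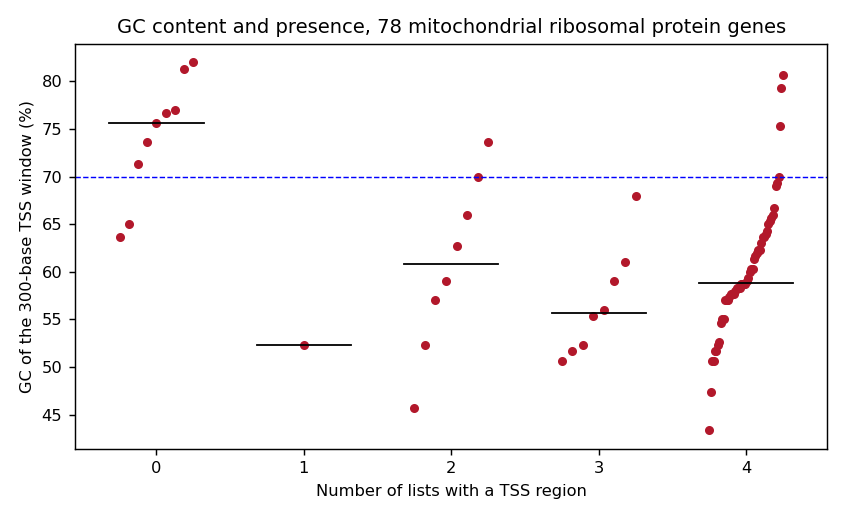
GC content (%, y axis) of the 300 bases around the canonical TSS of the 78 genes, by the number of lists with a TSS region (x axis). Each point is a gene, black lines are medians and the dashed line marks 70%. The 9 genes in no list have a median of 75.7%, and those in all 4 lists one of 58.8%.

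Motifs were counted as strings on both strands of the same windows. No motif string contains another, though matches may overlap. The ETS motif CCGGAAG was in 32 of 78 windows (41.0%, 30.8 to 52.1), against 20.9% of coding genes with a TSS region and 14.2% of all coding genes. The YY1 motif AAGATGGC was in 22 (28.2%, 19.4 to 39.0), against 6.35% and 4.06%. The NRF1 motif GCGCANGC was in 25 (32.1%, 22.7 to 43.0), against 23.6% and 16.96%, so that the first of these lay inside the interval. At least 1 of the 3 was in 57 windows (73.1%), against 43.1% of coding genes with a region. All 3 were together in MRPL20 and MRPL52 (2.56%), the latter printed above, against 0.328% of coding genes with a region.

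The YY1 share exceeded that of the cytosolic set, 13.3%, whose interval reached 22.2% and overlapped, and the ETS share of the cytosolic set was 34.9%. In the central 300 bases of the open regions, ETS matches were at 19 of 69 genes (27.5%) and YY1 matches at 14 (20.3%). Coding genes were not counted there, so an excess within the open regions was not shown. YY1 matches lay close to the TSS, with 18 of 23 starting within 50 bases of it, and so did 30 of 44 ETS matches. Among coding genes with a region these shares were 71.8% and 53.4%. The printed promoters show both near and far matches. YY1 matches began 13 bases after the TSS of MRPS30 but 98 and 64 bases before that of MRPL52. ETS matches began 5 bases before the TSS of MRPL52 and 6 before that of MRPL16, while those of MRPS22 began 113, 105 and 21 bases before it.

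Of the other motifs, SP and NFY were not more frequent than in coding genes with a region. The SP motif GGGCGG was in 60.3% of windows (49.2 to 70.4), below the 73.0% of coding genes with a region, and the NFY motif CCAAT in 28.2% (19.4 to 39.0) against 38.8%, which the interval includes. The ZNF143 motif ACTACAA was in 8.97% (4.42 to 17.4) against 4.05%, the E-box CACGTG in 8.97% against 10.6%, and the TATA motif TATAAA in 5.13% against 5.46%. The AP1 motif TGANTCA and the CRE motif TGACGTCA were in 1 window each. AP1 is the factor that PMA is known to activate, and all coding genes with a region had its motif in 3.80%. In 500-base windows the SP motif was in 70.5% of the set and the NFY motif in 41.0%, and coding genes were not counted there.

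**Figure D5:**
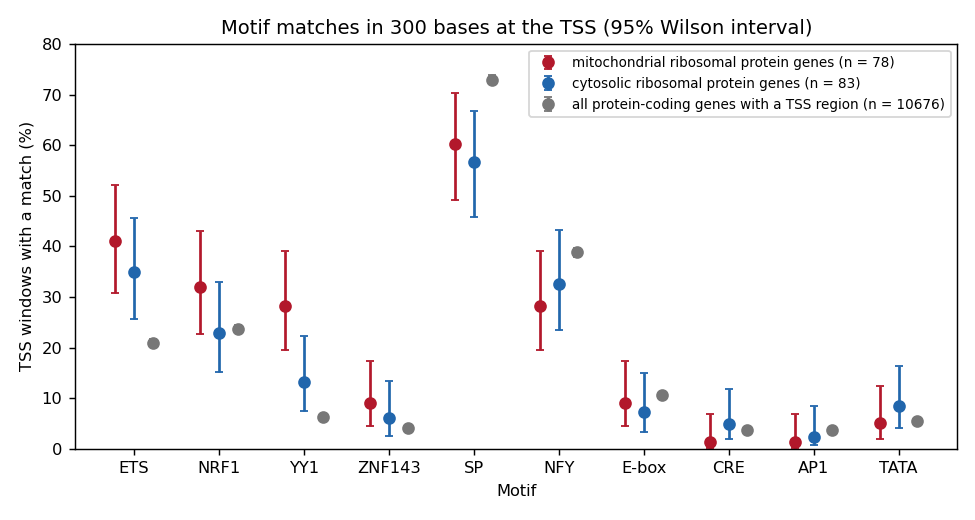
Share of 300-base TSS windows (%, y axis) with at least 1 match to each motif (x axis) for mitochondrial and cytosolic ribosomal protein genes and for all protein-coding genes with a TSS region. Bars are 95% Wilson intervals. ETS at 41.0% and YY1 at 28.2% lie above the grey points for coding genes, and SP at 60.3% lies below.

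Motif content did not part the genes by presence in a clear way. ETS matches were in 20 of the 52 genes in all lists (38.5%), 8 of the 17 in some (47.1%) and 4 of the 9 in none (44.4%). NRF1 matches were in 20 (38.5%), 3 (17.6%) and 2 (22.2%), and YY1 matches in 17 (32.7%), 4 (23.5%) and 1 (11.1%). The intervals of these shares overlapped. In the NS DMSO list the median fold enrichment was 5.05 with a YY1 match (n = 18) and 4.61 without (n = 39), and 4.95 with an ETS match (n = 20) and 4.57 without (n = 37). With an NRF1 match it was lower, at 4.55 (n = 21) against 4.78 without (n = 36).

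Other genes of mitochondrial translation were counted as whole lists. Beside them, 35.5% of all coding genes were in all 4 peak lists, 17.5% in 1 to 3 and 46.9% in none. Of 17 mitochondrial aminoacyl-tRNA synthetases, which charge the organelle's transfer RNAs, 15 were in all lists, IARS2 was missing from NS DMSO, and VARS2 was in none. Of 16 translation factors 8 were in all, 5 in some and 3 in none, the last being MTFMT, MTIF2 and TACO1. Of 20 genes for ribosome assembly and ribosomal RNA modification 11 were in all, 7 in some and 2, MRM1 and MRM2, in none. Among the 5 ribosomal proteins with other symbols, AURKAIP1 and PTCD3 were in all lists, while CHCHD1, DAP3 and GADD45GIP1 were in some. Of 9 genes of mitochondrial transcription and replication 6 were in all lists, MTERF1 and TEFM in 1 each, and TWNK, the helicase, in none.

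In these lists 1 gene passed 1.5-fold in any comparison. POLG, the mitochondrial DNA polymerase, had 4.03 in NS DMSO, 4.88 in SW DMSO, 6.48 in NS rottlerin and 5.06 in SW rottlerin, a ratio of 1.61 for NS rottlerin over NS DMSO. In that comparison 1.32% of coding genes were higher by 1.5-fold or more. The highest fold enrichment among them in the NS DMSO list was at MPV17L2, a factor of ribosome assembly. Its values were 10.04, 9.51, 8.80 and 9.38 in the same order, above MRPS30 in every list but SW rottlerin.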

How the data were processed

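FAIRE-seq peak lists of 4 Jurkat libraries were analysed. According to the study's methods and the submitters' processing notes, the authors used cutadapt for adapters, Bowtie2 for alignment on hg19 and Picard for duplicates, and then ran MACS2 in broad mode against total input, as stated for the samples given DMSO. Each list holds 1 sample per the labels. Versions are not given in the sources used here. The deposited lists give for each peak a score, the fold enrichment over input as a ratio, and the −log10 of its p-value and q-value. The deposited score equals the −log10 q-value multiplied by 10 and cut to a whole number.

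Peaks of the lists that overlapped or touched were merged to 40731 regions, 40703 of them on the autosomes, X and Y. TSSs came from GENCODE release 44 mapped to GRCh37, whose sequence is that of hg19. Ratios were taken on the highest fold enrichment per leading region, with no pseudocount, and a gene was counted past 1.5-fold. A region has a value only in a list with a peak there, so ratios leave out genes absent from either list, and small values near the limit of peak calling are missing. Motif windows without undetermined bases were available for 19862 coding genes. The members and gene lists were chosen with earlier results of these data known. Named genes were those in no list or in some lists, the 5 highest and 5 lowest in NS DMSO, the 3 highest and 3 lowest ratios of each comparison, those past 1.5-fold, and those sharing a region with another member. Other partner genes were named for their known role. No test was run, since each group is 1 library, and intervals cover counting error only. The steps were tested on simulated data. Alternatives varied the distance to a TSS, peak limits, merging, the fold, scaling, the measure and the motif window. The tools were samtools 1.23.1, matplotlib 3.10.9, Python 3.11.15, pysam 0.24.0, scipy 1.17.1, numpy 2.4.6 and pandas 2.3.3.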

Additional observations from a re-analysis of the deposited data

How the results depend on the processing

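No paired analysis was possible because each group is 1 library and no test was run. Of 149 values under alternative settings, 122 stayed within the interval or, for counts, within 1.5 times of the reported value. The presence shares in the single lists and in all lists did so under every alternative tried. With every list reduced to an equal number of peaks, genes in both rottlerin lists and neither DMSO list numbered 4 in place of 7, and without the SW rottlerin list, a setting chosen after seeing the data, 8 (coding genes 4.17%) were in NS rottlerin and neither DMSO list. Without the NS rottlerin list, 7 (8.97%) were in SW rottlerin and neither DMSO list, against 6.60% of coding genes. Counts past the fold were small and moved with it. At a limit of 0.32 on the log2 scale in place of 0.58, 2 were lower for SW DMSO over NS DMSO (3.64% against 5.84% of coding genes), 1 was higher and 2 lower for NS rottlerin over NS DMSO (1.85% and 3.70%, against 10.2% and 4.02%), 8 were higher and 4 lower for SW rottlerin over NS rottlerin (12.3% and 6.15%, against 9.33% and 3.58%), and 7 were higher for SW rottlerin over SW DMSO (12.1% against 14.6%). At a limit of 0.81 each of the 3 reported calls was lost, leaving 0. With the score in place of fold enrichment, the counts higher and lower in these comparisons were 2 and 8, 4 and 5, 9 and 4, and 12 and 1, and the median ratio of SW rottlerin over SW DMSO was 1.11. The same values by score were not taken over all coding genes, so they are not a trait of the set. Divided by the median over coding genes, the median ratios of SW rottlerin were 0.963 over NS rottlerin and 0.954 over SW DMSO, with 0 genes higher in the latter. In the central 300 bases of the regions, the ETS motif was in 27.5% and the CRE and AP1 motifs in 0%. In 500-base windows the SP motif was in 70.5% and the NFY motif in 41.0%. Shares of coding genes were not counted in either kind of window. The score moves with depth as well as enrichment, and depth is unknown here. The cause of the other moves was not tested. The 2 added checks of GC content left 4 of 11 genes present with a 2 kb distance and 6 of 13 with 500-base windows.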

Other observations

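Beyond the TSSs, 31 open regions lay inside the bodies of mitochondrial ribosomal protein genes, more than 1 kb from their TSSs. At no coding TSS lay 29 of them, in 14 genes. Of those 29, 8 were in the NS DMSO list, 10 in SW DMSO, 14 in NS rottlerin and 21 in SW rottlerin, and 15 were in a single list. The lists themselves held 18977, 20132, 23835 and 30409 peaks in this order. The same shares over all regions were not counted, so these counts are not a trait of the set. MRPL33 held the 1 region present in all 4 lists (chr2:28188788-28189051), at 4.96, 4.87, 4.75 and 5.27 in that order. A second region of MRPL33 (chr2:28183199-28183450) was in the DMSO lists alone, at 7.21 in NS DMSO and 4.33 in SW DMSO, and the first of these values was higher than that of any MRPL33 promoter peak, which ranged from 3.22 to 4.56. MRPS6, absent from every list at its TSSs, held 3 regions in its body. These were in 1, 3 and 3 lists, with fold enrichments between 2.81 and 5.16. Whether such regions act on the genes that hold them was not tested.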
